A study of Mus musculus with 4 samples.

Results

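Stra8-high Kit-low spermatogonia were the 1009 cells, of 7493 kept from 4 single-cell libraries, in which Stra8 RNA was above a set level while Kit and Gfra1 RNA were low. The libraries came from undifferentiated spermatogonia (A_undiff), sorted from adult WT C57BL/6J testes as E-cadherin+ CD49f+ c-KIT- cells. The mice were 6 to 8 weeks old. CTRL mice were untreated, and BU mice received a single dose of busulfan at 10 mg/kg and were sampled at day 10 (D10). Busulfan is a DNA-alkylating drug that depletes germ cells, and the study used it to set off regeneration of the A_undiff pool. Each library held cells pooled from 3 mice, with a CTRL and a BU library in each of 2 experiments (n = 2 libraries per group). Variation between single mice was therefore not measured, and p-values rest on pooled libraries. Where a test of genes had the library or the experiment as a term, they describe how a difference varies between libraries or experiments.

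The level used in the rule, N, was the natural logarithm of 1 plus 100000 times a gene's share of the unique molecular identifiers (UMIs) of a cell. A cell was a member with N(Stra8) above 2.5, N(Kit) at most 3 and N(Gfra1) at most 2. In addition, under 0.5% of its UMIs could come from Ldhc, Meig1, Crisp2, Acrv1 and Spink2 together, which are transcripts of later germ cells. Cells needed over 1000 detected genes and under 20% mitochondrial UMIs. Members numbered 395 of 3101 kept cells in CTRL 1 and 76 of 1120 in CTRL 2. In BU 1 they numbered 411 of 2008, and in BU 2 127 of 1264. The cells were chosen by the measured levels of these 8 genes, which are therefore given only as a description. All other genes were left free to vary.

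Stra8 (stimulated by retinoic acid gene 8) encodes a nuclear protein required for entry into meiosis. In the adult testis it is switched on by retinoic acid as A_undiff convert to differentiating spermatogonia, and again before meiosis. Differentiating spermatogonia carry c-KIT, the receptor for stem cell factor, whereas GFRα1, a co-receptor for GDNF, marks the stem-cell end of the A_undiff pool. Retinoic acid is made by ALDH1A enzymes, bound in the cytoplasm by CRABP1 and degraded by CYP26 enzymes. Retinoic acid acts through RAR/RXR receptor pairs, which bind repeats of a 6-base half-site in DNA.

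The promoter windows of Stra8 and of Cyp26a1, the retinoic acid-degrading enzyme whose RNA was also higher in these cells, are shown because both hold such half-sites. The sequences are the 250 bases before the gene start in RefSeq (GRCm38.p6), 5′ to 3′ on the gene's own strand. Capitals mark matches, on either strand, to the half-site AGGTCA, to its variant AGTTCA, to the variant GGGTCA and to the variant GGTTCA.
Stra8: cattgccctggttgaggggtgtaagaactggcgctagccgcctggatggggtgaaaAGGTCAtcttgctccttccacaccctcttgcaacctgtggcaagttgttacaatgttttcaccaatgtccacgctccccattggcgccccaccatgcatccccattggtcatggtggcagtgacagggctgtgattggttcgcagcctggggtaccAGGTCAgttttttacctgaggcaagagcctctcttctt
Cyp26a1: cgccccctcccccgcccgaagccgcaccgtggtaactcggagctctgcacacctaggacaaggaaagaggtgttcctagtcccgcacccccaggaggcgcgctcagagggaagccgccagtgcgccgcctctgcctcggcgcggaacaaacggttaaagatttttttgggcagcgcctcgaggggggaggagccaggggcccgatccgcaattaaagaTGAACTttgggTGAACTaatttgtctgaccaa
The Stra8 window lies at chr6:34920698-34920947 (+ strand), 5′ of the RefSeq start but inside the longer gene span of GENCODE M21 (chr6:34920163-34939344). Its half-sites begin at -194 and -38 from the start. The Cyp26a1 window lies at chr19:37697558-37697807 (+ strand). Its half-sites begin at -32 and -21, both on the reverse strand, and form a repeat with a spacing of 5 bases. Of 32851 promoter windows of the same length, 38.6% held at least 1 half-site, 9.75% held at least 2, and 0.0883% (29 windows) held such a repeat with a spacing of 5 bases. The windows of Crabp1, Aldh1a2 and Rec8 held no match to these letters. A match describes the sequence and shows no binding.

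UMI counts for every cell were deposited by the authors. CTRL 1 held 26802228 UMIs in 3261 cells and CTRL 2 39904588 in 2019 cells, and BU 1 held 21136369 in 2090 cells and BU 2 53579969 in 1859 cells. The labels give version 2 of the droplet kit for experiment 1 and version 3.1 for experiment 2. The median depth of Stra8-high Kit-low cells was 8387 and 9651 UMIs in the libraries of experiment 1 (CTRL, BU) and 36060 and 37749 UMIs in those of experiment 2, so depth differed mainly between the experiments. CTRL 2 and BU 2 shared 677 cell barcodes, whereas CTRL 1 and BU 1 shared 11 and CTRL 2 and BU 1 shared 1. Of the barcodes shared in experiment 2, 498 in CTRL 2 and 179 in BU 2 held over 10 times fewer UMIs than the same barcode in the partner library and are called copies below. Of the copies, 45 and 25 passed the cell filters. They included 5 of the 76 members of CTRL 2 and none of the 127 members of BU 2. Without the copies the counts of genes called stand beside the others in the closing section, and members made up 6.6% of kept cells in CTRL 2 and 10.3% in BU 2.

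As a description of the cut, the lowest N(Stra8) among members lay between 2.5004 and 2.5051, and the highest among the cells left outside by Stra8 alone was 2.488, 2.480, 2.495 and 2.499 in CTRL 1, CTRL 2, BU 1 and BU 2. A single Stra8 UMI is enough below 8943 UMIs per cell. Membership rested on 1 UMI for 132 members of CTRL 1 and 69 of BU 1, against 6 of CTRL 2 and 2 of BU 2. The median member held 2, 7, 4 and 12 Stra8 UMIs in CTRL 1, CTRL 2, BU 1 and BU 2. Stra8 summed over members was 366, 261, 490 and 393 CPM (counts scaled to a total of 1000000 UMIs), and in the cells within the same limits but with N(Stra8) at most 2.5 it was 4.97, 10.3, 11.8 and 22.8 CPM. These 3753 cells are called Stra8-low counterparts, and they numbered 2067 and 644 in the CTRL libraries and 630 and 412 in the BU libraries. Free RNA can place a UMI in a cell that does not make it. Among cells rich in later germ-cell RNA, which should lack Stra8, a Stra8 UMI was found in 2 of 32, 5 of 114, 2 of 9 and 8 of 125 cells. With every cell cut down at random to 5000 UMIs (thinned), 0 of 27, 1 of 69, 0 of 6 and 0 of 70 such cells held one, against 15.9%, 11.1%, 32.6% and 20.3% of all cells. With 0 found, 27 and 70 cells still allow a share of up to 11.1% and 4.29%, and the 6 cells of BU 1 allow up to 50%, which is above the 32.6% of all its cells, so the background of BU 1 was not measurable at this number of cells.

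Members were a larger share of the cells in BU than in CTRL within each experiment, but the groups overlapped. They were 12.7% of kept cells in CTRL 1 (exact binomial 95% interval 11.6 to 14.0) and 6.79% in CTRL 2 (5.38 to 8.42). The share was 20.5% in BU 1 (18.7 to 22.3) and 10.0% in BU 2 (8.44 to 11.8). BU 2 was below CTRL 1. The mean was 9.76% ± 4.21 (SD, n = 2) in CTRL and 15.3% ± 7.37 in BU, a difference of 5.50 percentage points (7.73 in experiment 1 and 3.26 in experiment 2). An exact permutation test over the 6 assignments of the libraries gave p = 0.667, two-sided, and cannot go below 0.333. It did not use the pairing of libraries by experiment, so the difference between the experiments counts as spread. Without BU 1 the difference was 0.286 points. Of the cells within the Kit, Gfra1 and later-germ-cell limits, members made up 16.0% and 10.6% in CTRL 1 and CTRL 2, against 39.5% and 23.6% in BU 1 and BU 2. Here both BU libraries were above both CTRL libraries, and the mean rose from 13.3% ± 3.88 to 31.5% ± 11.3 (exact permutation p = 0.333, the smallest possible). The difference was 18.2 points, 10.3 without BU 1 and 26.2 without BU 2. The intervals cover counting error only, and in sorted pools a larger share of one class and fewer cells of another cannot be told apart.

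**Figure D1:**
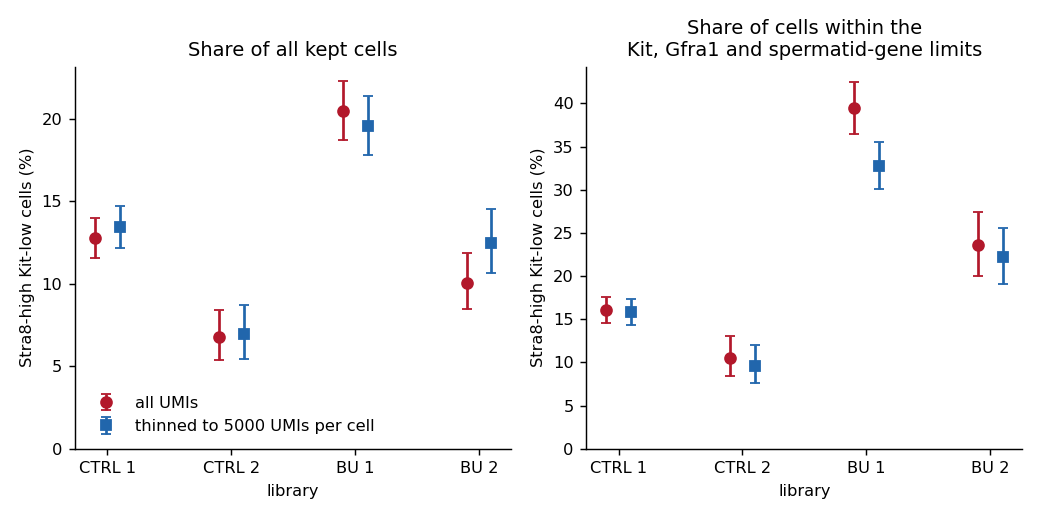
Share of Stra8-high Kit-low cells (per cent, linear axis from 0) in each library, of all kept cells (left) and of cells within the Kit, Gfra1 and later-germ-cell limits (right), from all UMIs (circles) and after thinning to 5000 UMIs per cell (squares), with exact binomial 95% intervals. On the left BU 2 (10.0%) lies below CTRL 1 (12.7%), while on the right both BU libraries (39.5% and 23.6%) lie above both CTRL libraries.

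Stra8-high cells also fell outside the Kit and Gfra1 limits. In CTRL, 71.8% ± 8.14 of all cells above the Stra8 minimum were members, 24.9% ± 4.12 were over the Gfra1 limit and 2.71% ± 3.55 were over the Kit limit. In BU these shares were 59.2% ± 0.605, 32.0% ± 0.645 and 9.13% ± 0.184. The shares over each limit were higher in BU in both experiments. These shares rest on genes of the rule and are given only as a description. A Kit UMI was present in 22 of 395, 26 of 76, 134 of 411 and 85 of 127 members, so the Kit limit admits low levels, mainly in the deeper libraries and in BU. A Gfra1 UMI was present in 2, 33, 22 and 47 members of CTRL 1, CTRL 2, BU 1 and BU 2. At the depth of 96.9%, 17.0%, 90.1% and 13.8% of their kept cells, 1 Gfra1 UMI would exceed the limit. The Gfra1 limit was therefore looser in experiment 2.

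The members carried germ-cell RNA and almost no RNA of testicular somatic cells. Ddx4, an RNA helicase of germ cells, was at 215, 367, 241 and 303 CPM in the members of CTRL 1, CTRL 2, BU 1 and BU 2. Zbtb16, the A_undiff transcription factor PLZF, was at 181, 198, 139 and 90.8 CPM. Of 9 macrophage and blood markers, 3 (Adgre1, Lyz2 and Hbb-bs) were at 0 in the members of every library and the 9 summed to at most 1.35 CPM. The Leydig cell list summed to at most 4.92 CPM over 6 genes, with Cyp17a1 and Lhcgr at 0 and Star the most abundant. The 5 peritubular myoid markers summed to 2.60, 6.32, 9.11 and 3.55 CPM, with Acta2 at 0.577, 1.05, 4.44 and 0.507, and the 5 endothelial markers to 4.33, 6.67, 5.14 and 3.89 CPM, with Cdh5 at 1.44, 3.16, 0.934 and 0.676. The 8 Sertoli cell markers summed to 34.3, 38.6, 32.0 and 25.4 CPM, led by Aard at 13.9, 21.1, 22.2 and 17.9 CPM. RNA of spermatids was present. Prm1, a protamine that packs sperm DNA, reached 1577 CPM in the members of CTRL 2, and 1 cell held 49.8% of those UMIs. It was 129, 130 and 165 CPM in the members of CTRL 1, BU 1 and BU 2, and 807 CPM in CTRL 2 without that cell.

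Compared with their Stra8-low counterparts in the same library, members had less RNA of 13 of 16 stem cell genes tested. Of 28 S phase genes 9 were higher, and of 16 retinoic acid genes 5 were higher and 2 lower. UMIs were summed per library and class, and the 8 sums were tested with edgeR's quasi-likelihood test with library and class as terms and Benjamini-Hochberg adjustment at 0.05. Of 12832 genes, 1448 (11.3%) passed, 614 higher (4.78%) and 834 lower (6.5%), and 1397 of them moved the same way in all 4 libraries. Without BU 1, 271 genes were called, 259 of them among the 1448, and without BU 2, 642 were, 601 of them among the 1448, so these calls leaned on the BU libraries. The fit without BU 1 tested 13879 genes, of which 88 were called higher and 183 lower. By list, without BU 1, 3 S phase genes, 2 E2F and chromatin regulators and 2 retinoic acid genes were called higher. So were 1 G1 gene and 1 general A_undiff and germ-cell gene. Called lower were 3 progenitor, 2 stem cell and 2 peritubular myoid genes. The retinoic acid, G1, immediate early, Sertoli and macrophage lists each had 1 gene lower. No meiotic, mitotic, p53, growth factor response or differentiation entry gene was called. With every cell thinned to 5000 UMIs before applying the rule 683 genes were called, 555 of them among the 1448. Thinning also redraws the class, since 302 of 379, 37 of 70, 287 of 377 and 73 of 146 thinned members had been members before.

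Several genes of retinoic acid handling differed between the classes. Crabp1, the cytoplasmic retinoic acid-binding protein, was at 292, 210, 415 and 423 CPM in the members of CTRL 1, CTRL 2, BU 1 and BU 2 and at 180, 129, 174 and 233 CPM in their counterparts. The difference had the same sign in each library (log2 fold change 0.81 ± 0.10 SE, adjusted p = 0.00193), although the counterparts of BU 2 exceeded the members of CTRL 2. At 5000 UMIs per cell a Crabp1 UMI was seen in 67.8%, 55.7%, 70.6% and 63.7% of members against 54.5%, 43.2%, 37.5% and 41.0% of counterparts. Among thinned cells rich in later germ-cell RNA, 1 of 27, 0 of 69, 0 of 6 and 2 of 70 held one.

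Cyp26a1 (chr19:37697798-37701536), itself a target of retinoic acid, was low in all cells and higher in members. Cyp26a1 was at 14.4, 15.5, 9.34 and 9.63 CPM in members and 1.66, 1.39, 5.83 and 6.70 CPM in counterparts. The classes did not overlap (log2 fold change 1.80 ± 0.47, adjusted p = 0.0362), but the gap was wide in CTRL and narrow in BU. The call was lost without CTRL 1 (log2 fold change 1.40) and without BU 1 (2.19). Rec8, a meiotic cohesin subunit that retinoic acid induces, was at 10.4, 7.03, 11.0 and 6.76 CPM in members against 5.08, 3.03, 2.99 and 3.54 CPM in counterparts (log2 fold change 1.17 ± 0.23, adjusted p = 0.0116). Aldh1a2, which makes retinoic acid, was higher by 0.42 ± 0.12 (adjusted p = 0.0478). Aldh1a3 was lower (log2 fold change -1.33 ± 0.31, adjusted p = 0.0244), and so was Aldh1a1 at -3.81, or -1.77 once cells with somatic markers were left out. The receptors were not called: Rara differed by 0.12 ± 0.11 and Rarg by -0.10 ± 0.12 on the log2 scale, and Rxra and Rxrb likewise missed the threshold. Of the 21 genes listed for retinoic acid response and metabolism, 16 were tested, 5 rose and 2 fell, with a median log2 fold change of 0.12 (-0.04 without BU 1) against 0.00 over all genes.

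**Figure D2:**
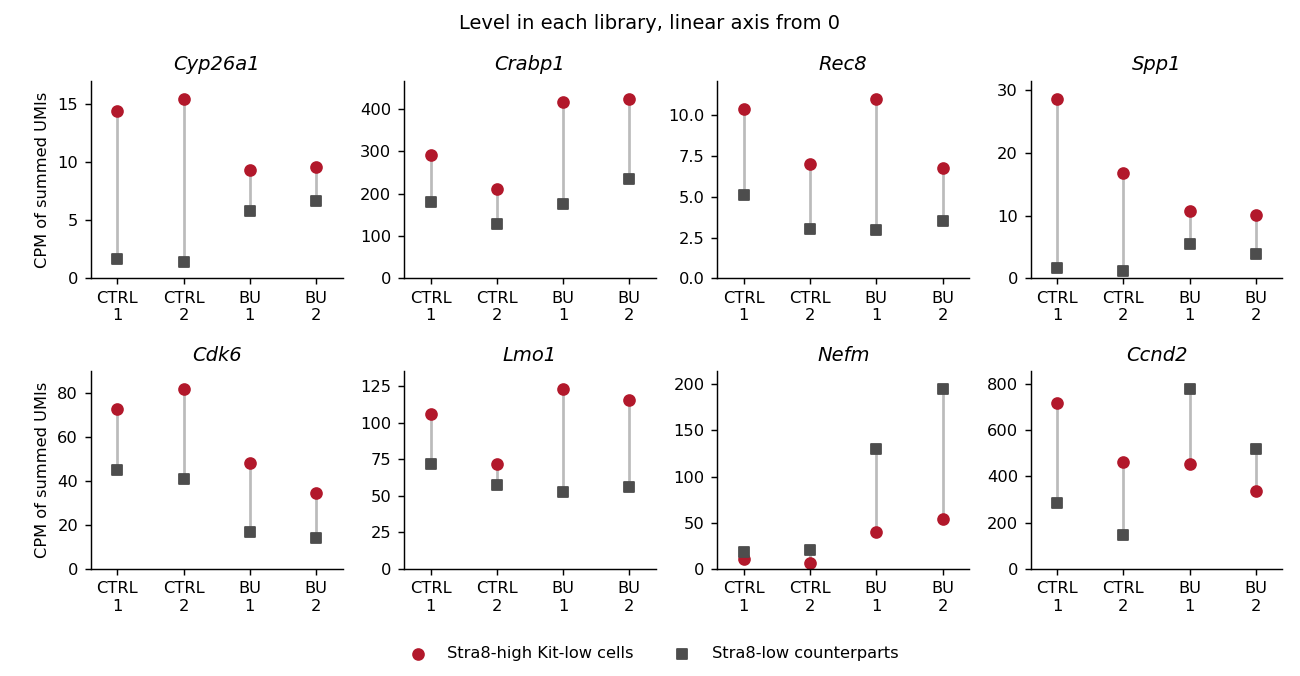
Levels of 8 genes (CPM of UMIs summed over the cells of a class, linear axis from 0) in each library, for Stra8-high Kit-low cells (circles) and their Stra8-low counterparts (squares), joined by a line. Cyp26a1, Crabp1, Rec8, Spp1, Cdk6 and Lmo1 were higher in the Stra8-high cells of all 4 libraries and Nefm lower, whereas Ccnd2 was higher in CTRL (717 against 284 CPM in CTRL 1) and lower in BU (456 against 777 CPM in BU 1).

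Most listed genes of the stem-cell end of the pool were lower in members. Of 17 listed stem cell genes, 16 were tested, 13 fell and 0 rose, with a median log2 fold change of -0.89, and all 16 estimates were below 0. Gfra1 was held low in both classes by the rule, at 0.577, 16.5, 5.14 and 16.7 CPM in members and 0.571, 8.40, 4.41 and 23.8 CPM in counterparts. Nefm, a neurofilament gene expressed in SSCs, was at 10.4, 6.67, 39.5 and 53.9 CPM in members and 18.1, 20.7, 130 and 194 CPM in counterparts. It was lower in the members of every library (log2 fold change -1.69 ± 0.14, adjusted p = 0.000466), while the BU members still exceeded the CTRL counterparts. Lhx1, a transcription factor downstream of GDNF, fell by 2.14 on the log2 scale (SE 0.20, adjusted p = 0.000573). Nanos2, an RNA-binding protein of SSCs, fell by 1.47 (SE 0.24, adjusted p = 0.00594). Ret, the signalling partner of GFRα1, fell by 0.80 (adjusted p = 0.0124), Id4 by 0.79 (adjusted p = 0.0424) and Zbtb16 by 0.42 (adjusted p = 0.00693). Etv5 (-0.53, adjusted p = 0.102), Eomes (-0.82, adjusted p = 0.122) and Bcl6b (-0.43, adjusted p = 0.294) did not pass. With 1 library left out, between 2 (without BU 1) and 14 (without CTRL 2) of the stem cell genes were called lower, 4 of 15 without BU 2, and 10 of 15 were lower after thinning.

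Of 9 progenitor genes tested, 3 fell and 0 rose, with a median log2 fold change of -0.34. Egr4, an early growth response factor of the progenitor signature, was at 665, 391, 183 and 174 CPM in members and 832, 492, 362 and 295 CPM in counterparts. The members were lower in each library, and the spread between libraries was wider than the difference within one (log2 fold change -0.66 ± 0.10, adjusted p = 0.00467). Ddit4, an inhibitor of mTORC1, fell by 0.79 (adjusted p = 0.00483) and Upp1, a uridine phosphorylase, by 0.54 (adjusted p = 0.00783). Neurog3 (-0.49, adjusted p = 0.0574, and called lower once cells with somatic markers were left out), Sox3 (-0.04, adjusted p = 0.881) and Lin28a (0.13, adjusted p = 0.506) did not pass. Among 11 general A_undiff and germ-cell genes, Sall4 rose and Zbtb16 fell. Sall4, a zinc-finger factor required for differentiation, was at 207, 213, 113 and 108 CPM in members and 117, 104, 103 and 66.6 CPM in counterparts (log2 fold change 0.62 ± 0.11, adjusted p = 0.00914). Foxo1, Ddx4, Dazl, Lin28a, Epcam and Uchl1 were among the other 9, none of which passed.

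Genes linked to the start of differentiation were divided, with 3 of 12 higher and 1 lower and a median log2 fold change of 0.07. That median was -0.002 without CTRL 2, 0.15 without BU 2 and 0.21 after thinning. Lmo1, a LIM-domain protein, was at 106, 72.0, 123 and 116 CPM in members and 71.6, 57.1, 52.4 and 55.8 CPM in counterparts (log2 fold change 0.74 ± 0.13, adjusted p = 0.00918). The smallest member value, in CTRL 2, was just above the highest counterpart value. Dnmt3b, a de novo DNA methyltransferase, rose by 0.57 (adjusted p = 0.0441) and Sohlh2, a helix-loop-helix factor of early differentiation, by 0.42 (adjusted p = 0.0116). Nanos3, an RNA-binding protein that restrains differentiation, fell by 0.48 (adjusted p = 0.0365). Ccnd2, the D-type cyclin induced as A_undiff start to differentiate, was not called over the 4 libraries (0.33 ± 0.36, adjusted p = 0.589), and it moved in opposite ways in CTRL and BU, as given below.

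Some S phase genes were higher in members. Of 28 tested, 9 rose and 0 fell, all 28 estimates were above 0, and the median log2 fold change was 0.23. Mcm2, a subunit of the replicative helicase, was at 205, 109, 260 and 172 CPM in members against 152, 71.6, 211 and 115 CPM in counterparts. The gap within each library was smaller than the spread between libraries, which the library term takes up (log2 fold change 0.41 ± 0.06, adjusted p = 0.00505). Cdc6, which loads the helicase, rose by 0.74 (adjusted p = 0.012) and Ccne2, a cyclin of S phase entry, by 0.62 (adjusted p = 0.00751). Mcm4, Cdt1, Cdc45, Hells, Chaf1a and Clspn made up the rest of the 9. After thinning, 3 of 28 passed, and 7 passed without somatic-marker cells. Of 14 E2F and chromatin regulators, 5 rose and 0 fell, with a median of 0.25. They were E2f3, E2f8, Dnmt1, Smarca5 and Hells, of which Hells is also in the S phase list. Of 22 genes of G2 and mitosis, Cenpf rose by 0.24 (adjusted p = 0.0205), Hmmr fell by 0.56 (adjusted p = 0.0187) and 20 did not pass, and the median was 0.05. After thinning Cenpf and Top2a rose and 0 fell, and 3 of 13 E2F and chromatin regulators (Dnmt1, Smarca5 and Hells) rose.

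Among 13 G1 cyclins, kinases and inhibitors, 2 rose and 3 fell, with a median log2 fold change of -0.15. Cdk6, the kinase partner of D-type cyclins, was at 72.7, 81.9, 48.3 and 34.8 CPM in members and 45.2, 40.8, 17.0 and 14.1 CPM in counterparts. It was higher in the members of each library by 0.68 to 1.48 on the log2 scale (log2 fold change 1.02 ± 0.13, adjusted p = 0.00275). Cdk2 rose by 0.44 (adjusted p = 0.0138). The kinase inhibitors Cdkn1b, Cdkn1a and Cdkn1c fell by 1.35 (adjusted p = 0.00417), 1.07 (adjusted p = 0.00429) and 0.61 (adjusted p = 0.0176). Of 15 p53 targets tested, 4 fell (Cdkn1a, Pmaip1, Plk2 and Btg2) and Phlda3 rose, with a median of -0.09. Growth factor response and regeneration genes had a median of -0.26, with Plaur and Spry4 lower and Foxm1 higher among 13 tested. After thinning these 3 calls were lost and Dusp6 alone, of 10 tested, was lower, and of the p53 targets Cdkn1a and Pmaip1 remained lower and Phlda3 higher. Of 8 immediate early genes tested, 3 fell (Egr1, Jun and Hspa1a) and 0 rose, with a median of -0.66, and Jun lost its call without somatic-marker cells. Such genes respond to growth factors and also to tissue dissociation, and the part of dissociation was not tested.

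Few meiotic genes were called between the classes, although most estimates were slightly higher in members. Of 28 tested, Rec8 and Syce2 rose and 0 fell, 19 estimates were above 0, and the median log2 fold change was 0.18. Without somatic-marker cells Mael and Msh5 were also called, both lower. Syce2, a protein of the synaptonemal complex, was at 521, 314, 520 and 354 CPM in members and 407, 256, 352 and 274 CPM in counterparts, higher in each library (log2 fold change 0.33 ± 0.07, adjusted p = 0.0131). Sycp3, an axial element protein, was at 178, 253, 214 and 271 CPM in members against 165, 230, 162 and 192 CPM (0.23 ± 0.08, adjusted p = 0.0887). Sycp1, Dmc1, Stag3 and Hormad1 did not pass either, and the meiotic partner of STRA8, Meiosin, was not found under that symbol, while Gm4969 differed by 0.45 ± 0.31 (adjusted p = 0.36).

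**Figure D3:**
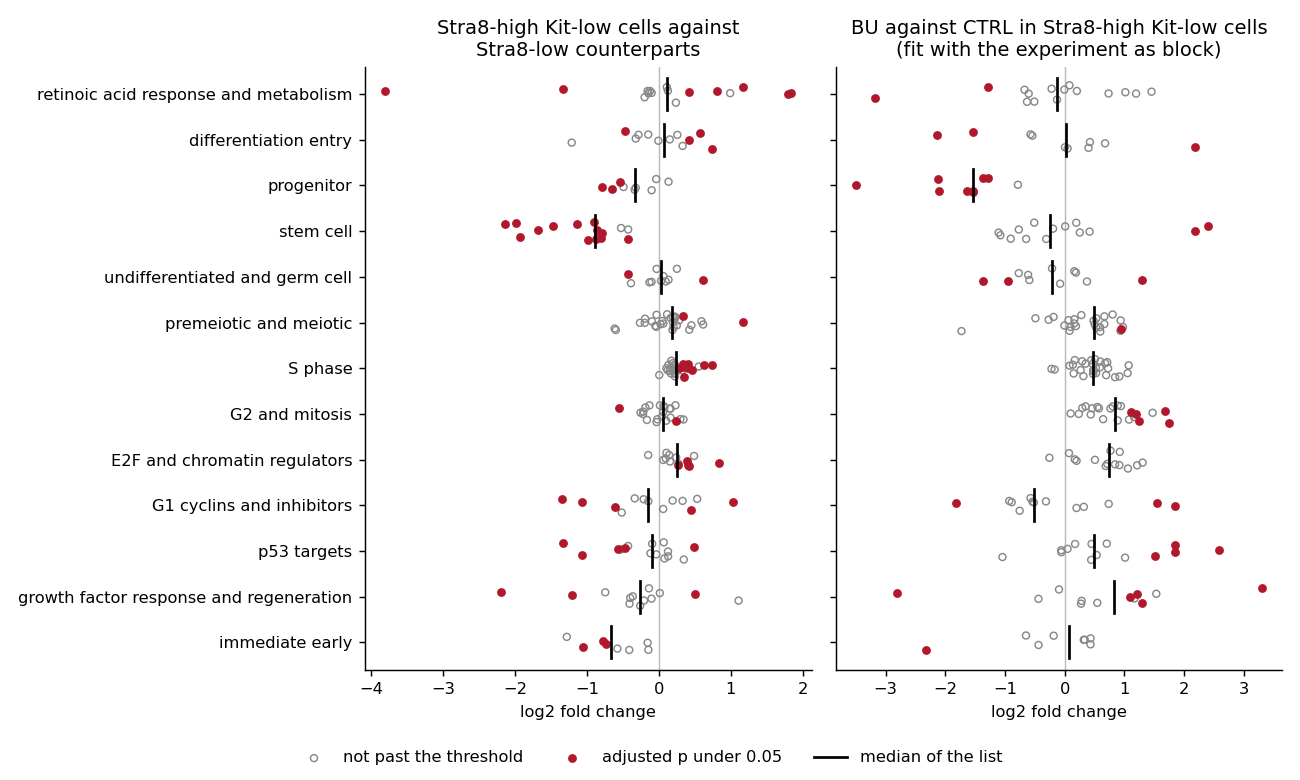
Log2 fold changes of every tested gene in 13 gene lists, for Stra8-high Kit-low cells against Stra8-low counterparts (left) and for BU against CTRL within Stra8-high Kit-low cells in the fit with the experiment as a block (right). Filled points had an adjusted p under 0.05 and bars mark list medians. On the left 13 of 16 stem cell genes are filled and below 0 and all 28 S phase points lie above 0, and on the right 8 of 9 progenitor genes are filled and below 0.

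Outside the lists, the largest rise among genes at 10 CPM or more was Spp1, which encodes the secreted protein osteopontin. It was at 28.6, 16.9, 10.7 and 10.1 CPM in members and 1.66, 1.17, 5.51 and 3.83 CPM in counterparts. The classes did not overlap (log2 fold change 2.501 ± 0.48, adjusted p = 0.0117), and members of both CTRL libraries stood above those of both BU libraries. Among the other large rises were Cyp26a1, Aurkc, a meiotic Aurora kinase (1.67, adjusted p = 0.0129), Ptcra, the pre-T-cell receptor chain (1.57, adjusted p = 0.000929), and Blvrb, a biliverdin reductase (1.56, adjusted p = 0.00417). Gchfr, Sh3d19, H2-Q7 and Gm13075 were also among the 10 largest rises, from 1.41 down to 1.35.

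The 10 largest falls were Lcn2, Cd74, Ifitm3, Cpe, Gstm2, Aldh1a1, Mgst1, Tmem176a, Vim and Cldn11, from -6.54 to -2.58, several of them genes of somatic and immune cells. Cells with at least 3 somatic marker genes and no Ddx4 UMI numbered 4, 15, 10 and 19 among the counterparts of CTRL 1, CTRL 2, BU 1 and BU 2, and 0, 1, 0 and 0 among members. Without these cells Lcn2, Cd74 and Ifitm3 no longer had enough counts to be tested, Cpe went from -4.23 to -2.72 and Vim from -2.77 to -1.19. The calls of this comparison were otherwise little altered, with 1477 genes called and 1344 of them shared with the 1448. Of the marker lists, the Sertoli genes tested were 0 higher and 2 lower of 5 (median -1.02), and the endothelial ones 0 and 1 of 2 (-1.22, and -0.17 without BU 2). The Leydig ones were 0 and 0 of 1 (-0.07, but 0.61 without CTRL 2 and 0.51 without somatic-marker cells). No myoid gene had enough counts, but without CTRL 1 and without BU 1, 3 were tested and 2 were lower (medians -3.17 and -3.46). The single macrophage gene tested was Cd74 (-6.39), and of 5 spermatid genes 1 was lower (median -0.27, and 0.17 without BU 2). After thinning all 4 spermatid genes tested (Prm1, Prm2, Tnp1 and Tnp2) were lower, with a median of -0.99, and none of 3 Sertoli genes was called.

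Kit-high cells, which met the same Gfra1 and later-germ-cell limits with N(Kit) above 3, numbered 1 and 7 in the CTRL libraries and 87 and 36 in BU 1 and BU 2. They give another class in the BU libraries, described here without a test. Egr4 went from 362 and 295 CPM in the Stra8-low counterparts of BU 1 and BU 2 to 183 and 174 in Stra8-high Kit-low cells and 54.4 and 39.7 in Kit-high cells. Nanos3 went from 49.8 and 45.2 to 23.4 and 31.9 and then to 1.18 and 2.52 CPM. Zbtb16 and Etv5 followed the same order. In the opposite order, Lmo1 rose from 52.4 and 55.8 to 123 and 116 and to 186 and 152 CPM, and Crabp1 from 174 and 233 to 415 and 423 and to 632 and 517 CPM. Not all genes were graded. Ccnd1 and Dmrtb1 were near level between the first classes and higher in Kit-high cells, where Dmrtb1, a DM-domain factor, reached 133 and 134 CPM against 52.3 and 49.4 in members. Cyp26a1 and Ccnd2 were lowest in Kit-high cells, at 2.37 and 1.89 CPM and at 81.7 and 26.5 CPM.

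**Figure D4:**
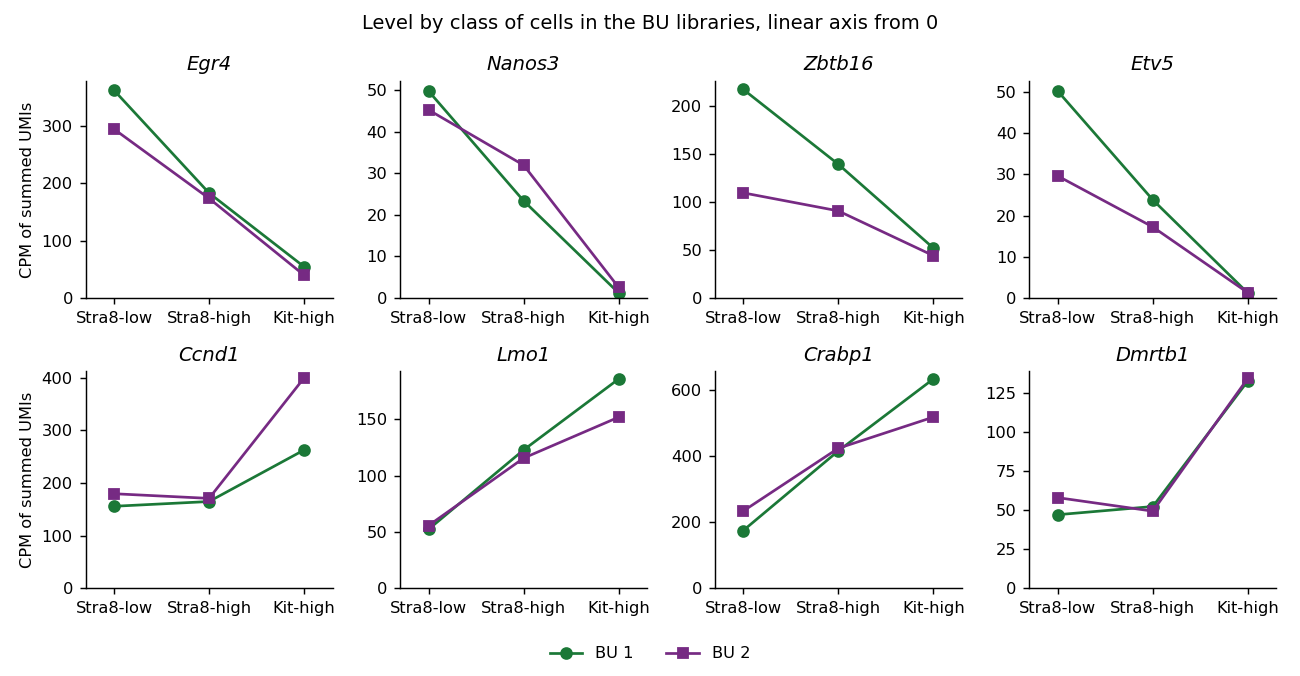
Levels (CPM of summed UMIs, linear axes from 0) of 8 genes in the Stra8-low counterparts, Stra8-high Kit-low cells and Kit-high cells of BU 1 (circles) and BU 2 (squares). Egr4, Nanos3, Zbtb16 and Etv5 step down over the classes, Lmo1 and Crabp1 step up, and Ccnd1 and Dmrtb1 are highest in the Kit-high cells (Dmrtb1 133 and 134 CPM).

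Against all other kept cells of each library, a mixture that includes Gfra1-high cells, 3388 of 14291 genes (23.7%) differed, 1538 higher (10.8%) and 1850 lower (12.9%), and 911 of the 1448 genes above were among them with the same sign. Stem cell genes were lower for 14 of 16 tested and S phase genes higher for 11 of 28, to be read against those shares. No progenitor gene was called, and Upp1 went from -0.54 to 0.13 on the log2 scale, so the 3 progenitor calls held against the Stra8-low counterparts and not against all other cells.

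With the experiment as a block, 8 of 9 progenitor genes were lower in Stra8-high Kit-low cells of BU than of CTRL. Of 22 genes of mitosis 5 were higher, and of 14 p53 targets 4. With condition as the only term, no gene of 12032 (0.0%) passed edgeR's test, 1322 had an unadjusted p under 0.05, and DESeq2 called 94. With the experiment as a replicate block, 409 genes (3.4%) passed, 96 higher (0.798%) and 313 lower (2.6%), and 408 of them moved the same way in both experiments. The numbers in the labels pair the libraries of an experiment, so values below come from the blocked fit, and without the block the adjusted p of every gene named was at least 0.241. Leaving out the copies raised the count to 736, which held all 409. Requiring at least 2 Stra8 UMIs raised it to 1172, which held 406 of the 409, and thinning gave 287, which held 199. A change of level per cell and a change in which cells pass the limits of the rule cannot be told apart. Members with a Kit UMI were 134 of 411 and 85 of 127 in BU, against 22 of 395 and 26 of 76 in CTRL. The part of this in the values below was not tested.

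Of the 9 progenitor genes, 8 fell and 0 rose, with a median log2 fold change of -1.54 against 0.01 over all genes. After thinning 6 of the 9 fell. Upp1 was at 174 and 138 CPM in the members of CTRL 1 and CTRL 2 and at 13.1 and 14.5 in BU 1 and BU 2. The groups lay an order of magnitude apart, far beyond their spread (log2 fold change -3.50 ± 0.28, adjusted p = 0.000741 with the block, 0.241 without). Neurog3, a helix-loop-helix factor of progenitors, was at 37.5 and 32.7 CPM in CTRL and 8.17 and 8.28 in BU (-2.10 ± 0.29, adjusted p = 0.00552). Ddit4 was at 89.2 and 62.2 CPM against 20.8 and 14.4 (-2.13, adjusted p = 0.00363), and Egr4, Lin28a, Rarg, Sall1 and Piwil4 fell by 1.29 to 1.64. Sox3 had 91.8 and 157 CPM in CTRL and 57.9 and 86.4 in BU (-0.78, adjusted p = 0.0876). Rarg, the RARγ receptor, fell by 1.29 (adjusted p = 0.0284). Of 15 retinoic acid genes tested 2 fell and 0 rose, while Rec8 (-0.01 ± 0.35) and Crabp1 (0.74, adjusted p = 0.0867) did not pass.

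Differentiation entry genes again moved both ways, with 1 of 10 higher and 2 lower. Dmrtb1 was at 10.4 and 11.6 CPM in CTRL and 52.3 and 49.4 in BU, so that the pairs were tight and well apart (log2 fold change 2.19 ± 0.28, adjusted p = 0.00461). Dmrtb1 was also frequent in the cells rich in later germ-cell RNA. At 5000 UMIs per cell it was seen in 19 of 27, 47 of 69, 6 of 6 and 46 of 70 of them in CTRL 1, CTRL 2, BU 1 and BU 2, against 5.54%, 5.71%, 15.4% and 24.7% of members, and the part of free RNA in the members' values was not tested. Nanos3 fell from 121 and 117 to 23.4 and 31.9 CPM (-2.13, adjusted p = 0.00414), and Sall1, which both lists hold, fell by 1.53. Of 14 stem cell genes tested, Nefm (2.41 ± 0.34, adjusted p = 0.00579) and Lhx1 (2.18 ± 0.48, adjusted p = 0.0336) rose and none fell, and the list median was -0.25 (0.18 after thinning, with 3 of 13 higher). Without the copies Tspan8 was called lower as well, and with at least 2 Stra8 UMIs 2 genes of this list were lower and 2 higher. Among the 11 general A_undiff and germ-cell genes, Epcam, a surface adhesion protein, rose from 99.3 and 112 to 243 and 281 CPM (1.29 ± 0.22, adjusted p = 0.0112). Sall4 fell from 207 and 213 to 113 and 108 CPM (-0.94, adjusted p = 0.0382), and Lin28a fell as given above.

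Some genes of mitosis were higher in the BU members. Of 22 tested, 5 rose and 0 fell, all 22 estimates were above 0, and the median log2 fold change was 0.85. Mki67, the proliferation marker Ki-67, was at 21.6 and 93.4 CPM in CTRL and 156 and 166 in BU. The CTRL libraries were far apart, so the rise was larger in experiment 1 than in experiment 2 (log2 fold change 1.76 ± 0.39, adjusted p = 0.0345). Plk1, a mitotic kinase, was tighter, at 23.7 and 23.5 CPM against 58.6 and 51.2 (1.20 ± 0.26, adjusted p = 0.0323). Kif4 and Tpx2, which act on the spindle, and Top2a, a topoisomerase, rose by 1.69, 1.25 and 1.11. Without the copies 10 of the 22 passed, and after thinning also 10. Of 28 S phase genes none passed, with a median of 0.48 and 26 estimates above 0, and 4 passed without the copies. None of 14 E2F and chromatin regulators passed (median 0.74), against 3 without the copies. In the fit without the block that median was 0.39 without CTRL 1 and 1.009 without CTRL 2. Meiotic genes had a median of 0.48, or without the block 0.20 without CTRL 1 and 0.68 without CTRL 2, and Smc1b, a meiotic cohesin subunit, rose by 0.94 (adjusted p = 0.0326).

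Ccnd1, the cyclin D1 gene, was at 57.7 and 55.5 CPM in CTRL and 165 and 171 in BU, and the pairs were tight and apart (log2 fold change 1.55 ± 0.23, adjusted p = 0.0078). Cdkn1b fell by 1.82 (adjusted p = 0.028), from 7.79 and 39.3 to 3.97 and 7.77 CPM, and BU 2 was level with CTRL 1. Of 14 p53 targets, 4 rose and 0 fell (3 of 12 rose after thinning), with a median of 0.49. Without the block that median was 0.18 without CTRL 2, 0.29 without BU 1, 0.85 without BU 2 and 1.08 without CTRL 1. Ccng1, cyclin G1, rose from 38.1 and 39.3 to 175 and 115 CPM (1.86 ± 0.26, adjusted p = 0.0055). Bbc3, which encodes the pro-apoptotic protein PUMA, was at 1.73 and 1.41 CPM in CTRL and 11.0 and 8.45 in BU (2.58 ± 0.47, adjusted p = 0.0168). Cdkn1a and Phlda3 rose by 1.85 and 1.51. Mdm2 (-0.06), Bax (0.54) and Trp53 itself (0.45) did not pass. Of 12 growth factor response and regeneration genes, Igf2, Epcam, Usp26 and Txn1 rose and Oasl2 fell, with a median of 0.82. Oasl2, an interferon-response gene, fell from 85.4 and 76.2 to 12.6 and 10.6 CPM (-2.82, adjusted p = 0.00148). Igf2 was at 3.75 and 0.703 CPM in CTRL and 50.7 and 1.18 in BU, so its rise rested on BU 1.

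**Figure D5:**
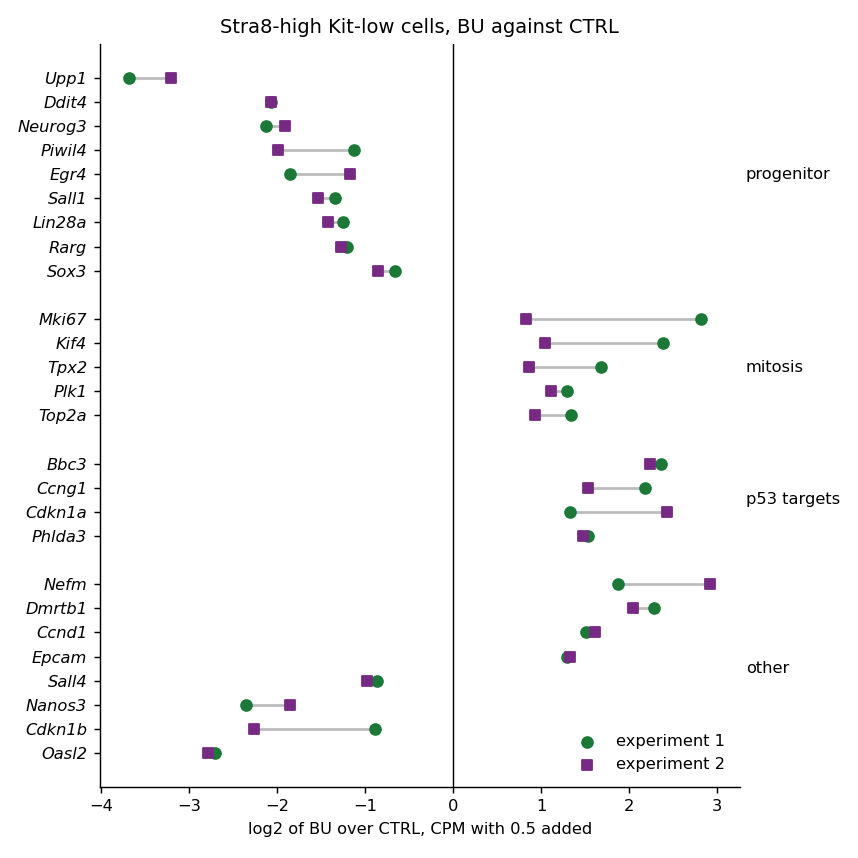
Log2 ratio of BU to CTRL (CPM with 0.5 added) in Stra8-high Kit-low cells, for experiment 1 (circles) and experiment 2 (squares), for all 9 progenitor genes and for chosen genes of the other lists. All 9 progenitor genes lie below 0 and the 5 genes of mitosis and 4 p53 targets shown, chosen because they passed the test, lie above 0 in both experiments, while Mki67 and Cdkn1b differ most between the experiments.

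By size alone, the 5 largest rises at 10 CPM or more were Igf2, Hist1h1b, a linker histone, Ppp1r14a, Gal, the galanin neuropeptide, and Tcea3, from 3.31 to 2.43. Gal was at 4.33 and 3.51 CPM in CTRL and 22.0 and 22.0 in BU (2.45 ± 0.35, adjusted p = 0.00579), and it was higher in members than in counterparts as well (1.20, adjusted p = 0.00481). The 5 largest falls were Ifitm1, an interferon-induced membrane protein, Ly6g6e, Nr2e1, Ly6g6c and Hydin, from -5.33 to -3.52. Ifitm1 was at 39.0 and 26.3 CPM in CTRL and 1.63 and 0.169 in BU. Of the remaining lists, 1 of 3 Sertoli genes fell (Wt1, -1.84), 0 of 1 Leydig and 0 of 4 spermatid genes were called, no myoid, macrophage or endothelial gene had enough counts, and 1 of 8 immediate early genes fell (Hspa1a, -2.33).

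The counterparts came from the same libraries, and their values are set beside those of the members. Without the block no gene of 14916 was called in them (1731 had an unadjusted p under 0.05, and DESeq2 called 340), and with it 1520 (10.2%) were, 840 higher (5.63%) and 680 lower (4.56%). Their progenitor genes were lower in BU for 9 of 9 (median -1.64), their mitotic genes higher for 17 of 22 (median 1.02) and their p53 targets higher for 7 of 15 (median 0.48). Their stem cell genes were higher for 9 of 16 with a median of 1.16, against 2 of 14 in members. Without the block 0 of these 16 were called (3 in DESeq2). In that fit the stem cell median of the counterparts was 1.04, and it ranged from 0.56 without CTRL 2 to 1.84 without CTRL 1. The median of their p53 targets was 0.26 without CTRL 2 and without BU 1, 0.80 without CTRL 1 and 1.13 without BU 2. The members' median of -0.25 had no stable sign. It was 0.18 after thinning, and in the fit without the block 0.27 with no Gfra1 limit, 0.44 without CTRL 1 and -0.78 without CTRL 2.

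Whether the gap between members and counterparts itself differed between BU and CTRL was tested with the interaction of class and condition. Of 13711 genes, 258 (1.88%) passed, 50 with a gap higher in BU (0.365%) and 208 with a gap lower in BU (1.52%). The count was 966 without BU 1, 155 without BU 2 and 402 without somatic-marker cells, and between 205 and 338 without a CTRL library. Ccnd2 (chr6:127125162-127152193) changed sign. In CTRL it was at 717 and 461 CPM in members against 284 and 145 in counterparts, and in BU at 456 and 337 CPM against 777 and 520. Members were above counterparts in both CTRL libraries and below them in both BU libraries (difference of log2 fold changes -2.16 ± 0.12, adjusted p = 9.93e-08). At 5000 UMIs per cell a Ccnd2 UMI was seen in 87.1% and 85.7% of members in CTRL against 49.8% and 41.6% of counterparts, and in 66.3% and 63.0% against 81.4% and 83.2% in BU. In cells rich in later germ-cell RNA it was seen in 3 of 27, 2 of 69, 1 of 6 and 1 of 70.

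The gap of Cyp26a1 was smaller in BU than in CTRL by 2.68 ± 0.37 on the log2 scale (adjusted p = 0.00158), with lower members and higher counterparts in BU. The gap of Spp1 was smaller in BU by 2.75 ± 0.37 (adjusted p = 0.00135). Of 16 stem cell genes, 8 passed and all 16 estimates were below 0, with a median of -1.06, and 3 passed without CTRL 1 and 4 without BU 2. Id4, an inhibitor of DNA binding that marks SSCs, was at 33.8 and 34.1 CPM in CTRL members against 34.5 and 37.6 in counterparts, near level. In BU it was at 20.3 and 23.7 against 50.5 and 61.1, with the counterparts of both libraries above all other values (-1.23 ± 0.18, adjusted p = 0.00232). Lhx2, Egr2, Foxc2, Etv5, Eomes, Bcl6b and Tspan8 were the others. Of 8 immediate early genes 4 passed, all lower (Fos, Jun, Junb and Ier2), as did Dusp6 and Spry1, feedback regulators of growth factor signalling. Dnmt3b moved the other way. Its gap was higher in BU by 0.92 ± 0.13 (adjusted p = 0.00144), at 161 and 99.5 CPM in BU members against 79.0 and 46.0 in counterparts, and at 108 and 83.3 against 99.2 and 70.0 in CTRL. After thinning, 45 genes passed the interaction test, 38 of them among the 258. Ccnd2 and Dnmt3b still passed, Cyp26a1, Spp1, Dusp6 and Spry1 did not, of the immediate early genes Ier2 alone did, and no stem cell gene passed.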

How the data were processed

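The authors deposited 1 matrix of UMI counts per single-cell library of sorted A_undiff, 9229 cells in all, and these were the starting point. The submitters' processing notes name Cell Ranger 3.0.2 and Seurat 3.2. The 7493 cells that had over 1000 genes and a mitochondrial share under 20% were kept, and 27514 genes were listed in all 4 libraries. The cells, the 19 gene lists and the tests were chosen with earlier results of these data known.

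UMIs were summed per library and class and tested with edgeR 4.0.16 (quasi-likelihood test, filterByExpr, TMM) in R 4.3.3, without the 8 genes of the rule and with Benjamini-Hochberg adjustment at 0.05. Log2 fold changes are given ± SE. The quasi-likelihood test estimates the variance of each gene with help from all genes, because the sums are few. Small p-values therefore do not rest on the libraries of 1 gene alone. CPM in the text are plain shares of the summed UMIs of the genes that all libraries list, and ratios within an experiment had 0.5 CPM added. The named genes were those of the lists, those the study names for its clusters, the 10 largest rises and falls between the classes and the 5 largest between the conditions, at 10 CPM or more and the same in direction in every library or experiment. Some genes of this rule are not reported here. BU against CTRL was planned with condition as the only term, and a replicate block for the experiment was the alternative. The labels give each experiment its own kit version, so equal numbers pair libraries. Deviations of equally numbered libraries from their group means correlated at 0.596 (across genes). Of the member sums, principal component 1 (51.7%) separated the experiments and component 2 (38.0%) the conditions.

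Alternatives were DESeq2 1.42.0, no filter on low counts, cells thinned to 5000 UMIs, at least 2 Stra8 UMIs, no Gfra1 limit, a 10% mitochondrial limit, other comparator cells, doublets left out, and each library left out. Leaving out copies and somatic-marker cells was added after the data were seen. Doublets were scored with scrublet in scanpy 1.11.5. Its own threshold marked 15 of 7493 cells (0.200%), too few to have worked, so the highest scores were marked instead at 0.8% per 1000 cells (132 cells, 21 of them members). Coordinates are those of GENCODE M21 (GRCm38), matched by Ensembl ID. Permutations and intervals used scipy 1.17.1, and the tests were checked on simulated data.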

Additional observations from a re-analysis of the deposited data

Results flagged for a closer look

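Of 245 named genes that entered the interaction test of class and condition, 35 had a gap between Stra8-high Kit-low cells and their Stra8-low counterparts that differed between BU and CTRL (edgeR's quasi-likelihood test, adjusted p under 0.05). Over all 13711 genes of that test, 258 (1.88%) passed. The named genes were chosen partly by the size of their changes in these data, so the count of 35 is a listing and no result about them. The values below are the log2 gap in BU minus that in CTRL. They are estimates from 2 libraries a group, and the levels behind the main ones stand in the report. With cells thinned to 5000 UMIs, 5 of the 35 still passed (Ccnd2, Dnmt3b, Ier2, Lmo1 and Uchl1), 30 did not, and the values of Bcl6b (0.34) and Prm1 (0.57) changed sign. DESeq2 called 11 of the 35, among them Ccnd2, Cyp26a1, Spp1, Dnmt3b and Id4, and with 1 library left out between 18 (without CTRL 1) and 34 (without BU 1) passed.

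The gap was higher in BU for 7 genes. They were Gchfr (1.88), a regulator of GTP cyclohydrolase, the methyltransferase gene Dnmt3b (0.92), the progenitor factor Sox3 (0.78), Uchl1 (0.73), a ubiquitin hydrolase of spermatogonia, Lmo1 (0.70), Lin28a (0.64) and Sohlh1 (0.54). For Sox3 the members were at 57.9 and 86.4 CPM and the counterparts at 44.6 and 62.5 CPM in BU 1 and BU 2, whereas in CTRL 1 and CTRL 2 the counterparts were higher, at 117 and 192 CPM against 91.8 and 157.

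The gap was lower in BU for 28 genes. Among stem cell genes these were Egr2 (-1.73), Eomes (-1.59), Lhx2 (-1.35), Bcl6b (-1.31), Foxc2 (-1.29), Id4 (-1.23), Tspan8 (-1.11) and Etv5 (-1.01). The immediate early genes were Junb (-2.36), Fos (-1.72), Jun (-1.50) and Ier2 (-1.30), and the growth factor response genes were Dusp6 (-1.39), Spry1 (-1.29), Mcam (-0.65) and Epcam (-0.59). Genes of the cell cycle were Ccnd2 (-2.16), Rrm2 (-1.03), Prim1 (-0.89), Mki67 (-0.77), Cdk1 (-0.72) and Cdkn1c (-0.69). Spp1 (-2.75), Cyp26a1 (-2.68), the p53 target Pmaip1 (-1.12), Egr4 (-0.51), the Sertoli cell gene Wt1 (-1.99) and the protamine gene Prm1 (-1.49) made up the rest. Wt1 lost its call without somatic-marker cells, and Prm1 and Eomes lost theirs without the copies of shared barcodes. In the members of CTRL 2, 1 cell held 49.8% of the Prm1 UMIs, and its part in that value was not tested.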

How the results depend on the processing

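Each group held 2 pooled libraries, depth differed about as the experiments did, and in the shallow experiment 1 membership often rested on 1 Stra8 UMI. The counts of genes called moved with most choices. The difference between BU and CTRL in the share of members among kept cells, and among those within the limits, kept its direction under every setting run, at 5.50 percentage points and between 0.286 (without BU 1) and 10.7 (without BU 2) with 1 library left out. Unless stated, the cause of a change was not tested.

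For BU against CTRL in members, with 0 genes called in the planned fit, the replicate block gave 409, and with the block 362 without somatic-marker cells, 736 without copies, 542 without doublets, 1172 with at least 2 Stra8 UMIs, 287 after thinning and 151 in DESeq2. Without the block the count was 94 in DESeq2, 333 with no filter on low counts, 1 after thinning, and between 0 (without CTRL 2) and 166 (without CTRL 1) with 1 library left out, a fit in which the lone library is assumed to vary like the other group. For members against counterparts, with 1448 called, omitting the library term (no replicate block) gave 0 (630 at an unadjusted p under 0.05), no filter 2463, leaving out copies 1439, thinning 683, no Gfra1 limit 2316, all other cells as comparator 3388, and leaving out 1 library between 271 (without BU 1) and 1330 (without CTRL 2). The interaction, with 258, gave 62 in DESeq2, 723 with no filter, 233 without copies, 45 after thinning, 402 without somatic-marker cells, and between 155 and 966 with 1 library left out. In the counterparts, with 0 called, the replicate block gave 1520, the block without copies 1511, DESeq2 340, and leaving out 1 library between 1 and 198.

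Some single genes changed sign. After thinning these were Prm1 between the classes (-0.94) and Bcl6b (0.34) and Prm1 (0.57) in the interaction, and against all other cells Upp1 (0.13) and Prm1 (-2.37). Kit-high cells were a different comparator of 1, 7, 87 and 36 cells. The 7 of CTRL 2 held a Leydig marker sum of 8520 CPM (Cyp17a1 alone 3972), against at most 4.92 CPM in the members of any library, and the part of this, and of the single cell of CTRL 1, in the values that follow was not tested. Against them, members were lower for Tcea3 (-1.42), Gal (-1.13), Mki67 (-1.02), Ccnd1 (-0.94), Ccne2 (-0.87), Phlda3 (-0.84), Kif4 (-0.73), Tpx2 (-0.69), Cdk6 (-0.54), Lmo1 (-0.54), Aldh1a2 (-0.50), Dnmt3b (-0.48), Ptcra (-0.46), E2f8 (-0.42), Cenpf (-0.41), Chaf1a (-0.40), Dnmt1 (-0.39), Cdk2 (-0.36), Foxm1 (-0.34), Crabp1 (-0.34), Clspn (-0.26), Hells (-0.26), Rec8 (-0.21), Cdc6 (-0.20), Mcm2 (-0.11) and Smarca5 (-0.092). They were higher for Foxc2 (4.43), Nefm (3.82), Dusp6 (3.74), Egr1 (3.64), Etv5 (3.64), Egr2 (3.49), Id4 (3.05), Cdkn1b (3.03), Ret (3.00), Nanos3 (2.68), Upp1 (2.30), Hist1h1b (2.19), Oasl2 (2.18), Egr4 (2.14), Bcl6b (2.11), Tspan8 (2.09), Spry1 (1.77), Aldh1a3 (1.76), Pmaip1 (1.54), Ier2 (1.43), Fos (1.30), Ddit4 (1.22), Zbtb16 (1.13), Prm2 (1.12), Cdkn1c (0.96), Mael (0.76), Hspa1a (0.54), Lhx2 (0.48) and Tnp1 (0.42).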
